A study of Mus musculus with 12 samples.

Results

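The genes described here are 10 of the 31053 in the expression tables: Col4a1, Col4a2, Col6a1, Col6a2, Col6a3, Col8a1, Col13a1, Col14a1, Col15a1 and Col18a1, the collagens of basement membranes and of networks and surfaces other than the banded fibrils. They were chosen by name, with no measured value in the rule but with earlier results of these data known, and all 10 were found in the tables. The study profiled single mouse cells with droplet-based 3′ sequencing (10x Chromium, version 3 chemistry) from tracheal allografts, native tracheas and spleens, in a series on fibrosis after transplantation. The labels list 4 samples for each of these 3 sources, 12 in all, but the cells of each source share 1 matrix with no key from cell to sample. Each source is therefore 1 library here, no p-value can be given, and the intervals printed are 95% intervals that cover counting error only. The labels call the tracheal cells mesenchymal progenitors and the spleen cells splenocytes; they give no strain, sex, age, donor and recipient pairing, time after grafting or drug.

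Collagens are secreted or membrane-bound triple helices built from 3 chains. Type IV collagen, with the Col4a1 and Col4a2 products as its commonest chains, forms the sheet-like network of basement membranes under epithelium and endothelium. Type VI collagen, assembled from the Col6a1, Col6a2 and Col6a3 products, makes beaded microfilaments around cells. Col8a1 encodes a short-chain collagen that builds hexagonal lattices in vessel walls and in the cornea. Col13a1 encodes a collagen anchored in the plasma membrane. Col14a1 encodes a collagen that coats the surface of fibrils. Col15a1 and Col18a1 encode the related collagens of the basement membrane zone, the second of which carries endostatin at its end.

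The 3 libraries held 4611 allograft, 4626 native and 4856 spleen barcodes, and 3864 allograft, 4115 native and 4570 spleen cells were kept. The median cell had 4965 unique molecular identifiers (UMIs, each standing for 1 captured RNA molecule) in the allograft, 6526 in the native and 4428.5 in the spleen library. At most 7 barcodes were shared by any pair of libraries. Cells were sorted into classes by 13 lists of 8 marker genes each, none of which was a member. Most tracheal cells did not carry the fibroblast markers: that gate held 28 allograft cells (0.725%) and 874 native cells (21.2%), while the macrophage gate held 2208 allograft and 1791 native cells. The label mesenchymal progenitors therefore does not describe most cells of either tracheal library. All 8 fibroblast markers were detected in the gated fibroblasts of both libraries, which is no separate check, since these markers define the gate. The gated fibroblasts of each library also carried 6 of 8 chondrocyte markers, summing to 1001 CPM in the allograft and 141.3 CPM in native tracheas. The chondrocyte gate held 20 allograft and 6 native cells, the endothelial gate 3 allograft and 14 native cells, and the Schwann cell gate 0 allograft and 29 native cells. Gated chondrocytes also carried fibroblast markers, 6 of 8 in the allograft (3141 CPM) and 4 of 8 in native tracheas (10830 CPM). The native sum is near the 12090 CPM of native gated fibroblasts, so the class of those 6 cells is less certain. A further 135 allograft and 211 native cells carried markers of more than 1 lineage and are called mixed; 47 of the allograft and 88 of the native ones had 3 or more mesenchymal markers.

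On GRCm38 (mm10), with GENCODE release 21 gene limits, Col4a1 lay at chr8:11198423-11312826 on the minus strand and Col4a2 at chr8:11312805-11449287 on the plus strand. Chromosome 10 held Col6a1 (chr10:76708792-76726168), Col6a2 (chr10:76595762-76623630), Col13a1 (chr10:61838236-61979108) and Col18a1 (chr10:77052178-77166548), all on the minus strand. Col6a3 lay at chr1:90765923-90843971 and Col8a1 at chr16:57624258-57754737, both on the minus strand. Col14a1 lay at chr15:55307750-55520803 and Col15a1 at chr4:47208161-47313167, both on the plus strand. None of the 10 overlapped another gene of the tables on its own strand.

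Col4a1 and Col4a2 are transcribed head to head. Their annotated starts, 11312826 and 11312805, were 21 bases apart, so the 300-base windows around them shared 78 bases. The windows are shown because the levels of these 2 genes are set side by side below; each runs from 250 bases before the start to 50 after it, 5′ to 3′ on the gene's own strand, and capitals mark the shared bases (chr8:11312777-11313076, minus strand, and chr8:11312555-11312854, plus strand; RefSeq, GRCm38.p6).
Col4a1: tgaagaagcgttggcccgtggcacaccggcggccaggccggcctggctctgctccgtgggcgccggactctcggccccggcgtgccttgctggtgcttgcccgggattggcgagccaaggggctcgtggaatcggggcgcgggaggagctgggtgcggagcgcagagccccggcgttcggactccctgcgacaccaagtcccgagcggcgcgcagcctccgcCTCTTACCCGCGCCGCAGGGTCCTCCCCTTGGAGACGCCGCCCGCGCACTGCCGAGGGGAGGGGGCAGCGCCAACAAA
Col4a2: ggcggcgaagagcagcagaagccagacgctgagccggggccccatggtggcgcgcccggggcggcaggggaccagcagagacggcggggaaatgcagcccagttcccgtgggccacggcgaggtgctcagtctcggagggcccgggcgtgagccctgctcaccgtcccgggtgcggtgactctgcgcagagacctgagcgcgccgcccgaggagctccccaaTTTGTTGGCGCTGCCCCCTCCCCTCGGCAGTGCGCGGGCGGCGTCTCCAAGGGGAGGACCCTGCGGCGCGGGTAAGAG
The 3 type VI genes, whose levels moved together from cell to cell, and Col8a1, which differed from the other members between the libraries, are shown in the same way (chr10:76725995-76726294, chr10:76623355-76623654, chr1:90843922-90844221 and chr16:57754688-57754987, all minus strand). Here capitals mark matches, on either strand, to the motifs searched: the CCAAT box, the GC box with the letters GGGCGG, the TATA box with the letters TATAAA and the AP-1 site with the letters TGANTCA. The windows of Col6a1 and Col6a2 are set on RefSeq starts, 76726044 and 76623404, that lie inside the gene limits given above. Col6a2 has a second RefSeq window from base 76623581, which is not shown and held 1 match to the GC box.
Col6a1: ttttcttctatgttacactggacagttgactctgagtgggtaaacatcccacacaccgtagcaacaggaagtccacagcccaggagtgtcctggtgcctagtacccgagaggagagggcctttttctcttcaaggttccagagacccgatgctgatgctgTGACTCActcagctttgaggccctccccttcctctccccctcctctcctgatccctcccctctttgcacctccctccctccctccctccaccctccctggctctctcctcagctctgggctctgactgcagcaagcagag
Col6a2: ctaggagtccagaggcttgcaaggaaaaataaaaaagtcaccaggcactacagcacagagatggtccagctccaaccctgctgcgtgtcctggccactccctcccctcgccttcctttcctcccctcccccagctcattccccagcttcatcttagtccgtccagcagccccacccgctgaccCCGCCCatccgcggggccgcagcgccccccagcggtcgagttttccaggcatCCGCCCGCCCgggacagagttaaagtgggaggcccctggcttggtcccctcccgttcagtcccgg
Col6a3: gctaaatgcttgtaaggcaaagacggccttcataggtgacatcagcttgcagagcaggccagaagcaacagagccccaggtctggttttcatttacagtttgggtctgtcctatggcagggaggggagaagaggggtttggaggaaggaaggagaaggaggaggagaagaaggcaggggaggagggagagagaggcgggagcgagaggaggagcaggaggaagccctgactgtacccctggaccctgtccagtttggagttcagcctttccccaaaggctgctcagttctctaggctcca
Col8a1: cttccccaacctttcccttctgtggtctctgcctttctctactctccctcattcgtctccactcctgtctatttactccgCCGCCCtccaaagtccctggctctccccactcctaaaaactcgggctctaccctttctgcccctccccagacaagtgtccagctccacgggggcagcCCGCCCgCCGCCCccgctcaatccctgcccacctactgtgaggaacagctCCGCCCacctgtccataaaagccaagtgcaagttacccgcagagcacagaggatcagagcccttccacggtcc
The Col8a1 window held 4 matches to the GC box, the Col6a2 window shown 3, of which 2 overlap, and the Col6a1 window 1 match to the AP-1 site. The Col6a3 window held no match to any of these motifs. For scale, 35.7% of 32851 windows of this length held the GC box, 37.4% the CCAAT box, 13.6% the TATA box and 7.81% the AP-1 site. Windows were found for 9 of the 10 members.

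Over all kept cells, 9 of the 10 members were lower in the allograft library by 2-fold or more, where 19.5% of 16465 genes were, and 1 member, Col8a1, was higher, where 7.06% were. The median log2 ratio of the members, allograft over native, was -3.87, beside 0.01 over all genes tested. Levels are given as CPM, a gene's UMIs divided by all UMIs of the same cells and scaled to 1000000, and a ratio is that of 2 such levels with 0.5 UMI added to each sum. Col6a1 had 1051 UMIs in the allograft library and 24027 in the native library, or 41.2 CPM in the allograft against 792 CPM in native tracheas, and was 19.2-fold lower (18.1 to 20.5). Col15a1 had 213 UMIs in the allograft library and 7412 in the native library, and was 29.2-fold lower (25.5 to 33.7). Col14a1 (allograft 19.3, native 139.7 CPM) and Col18a1 (allograft 4.35, native 31.4 CPM) were the members with the smallest reductions, 7.22-fold and 7.17-fold. Col8a1 had 1178 UMIs in the allograft library and 307 in the native library, and its level was 4.56-fold higher (4.02 to 5.19). In sums over all cells, fewer cells of a type and less RNA per cell cannot be told apart, and the fibroblast gate differed in size between the libraries as given above.

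The members' RNA lay in different cells in the allograft and native libraries. Gated fibroblasts held 2138 of 5284 member UMIs in the allograft (40.5%) and 72171 of 78998 in the native library (91.4%). The next largest shares in the allograft were those of mixed cells (26.2%) and chondrocytes (22.5%), while in the native library mixed cells held 5.82% and chondrocytes 0.0608%. Of the 1384 member UMIs in allograft mixed cells, 1372 lay in cells with mesenchymal markers, and 40 of those 47 cells also had 3 or more macrophage markers. The complement genes C1qa, C1qb and C1qc, made by macrophages, were also seen in allograft T and NK cells at 35.6, 42.0 and 22.6 CPM, against 33.6, 26.9 and 12.3 CPM in native ones; the part of such RNA in the mixed calls was not tested.

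**Figure D1:**
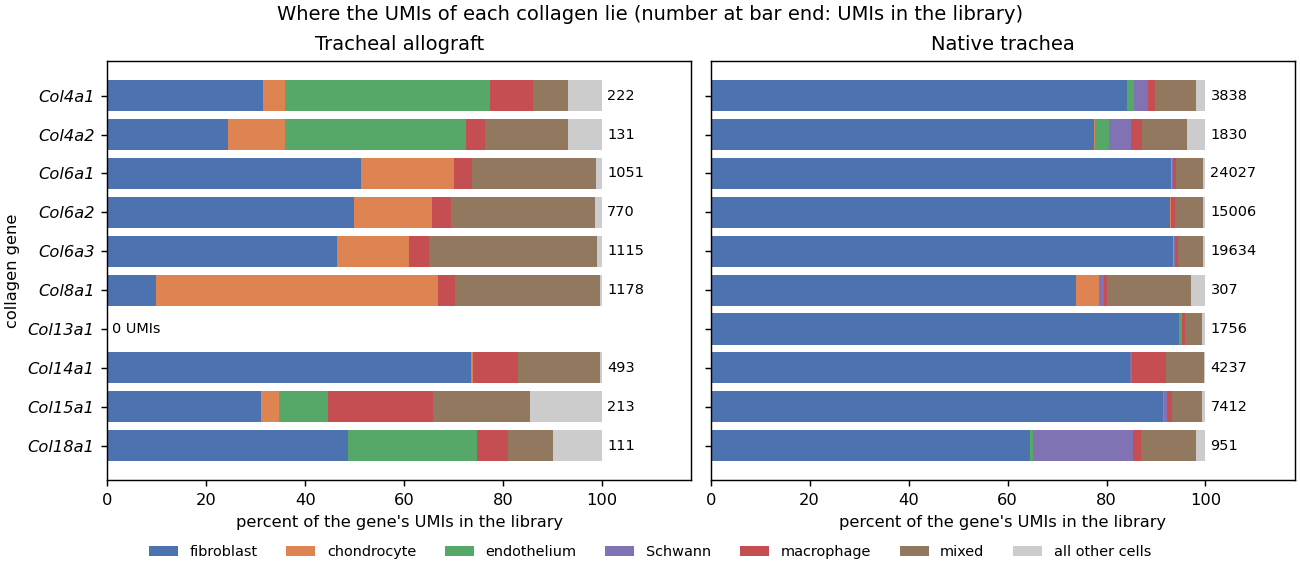
Share of each collagen's UMIs (x axis, percent of the gene's UMIs in the library) held by each cell class, with allograft in the left panel and native in the right; the number at each bar end is the gene's UMIs in that library. Fibroblasts hold most of every bar in the native panel, while chondrocytes hold 57.0% of Col8a1 and endothelial cells 41.4% of Col4a1 in the allograft panel.

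Of the 4 classes of most interest, endothelium had the highest levels of both type IV chains in both tracheal libraries. Among fibroblasts, chondrocytes, endothelium and macrophages of the native library, 6 members had their highest level in fibroblasts (Col6a1, Col6a2, Col6a3, Col13a1, Col14a1 and Col15a1), and Col4a1, Col4a2 and Col18a1 had it in endothelium and Col8a1 in chondrocytes. For Col13a1 and Col18a1 the intervals of fibroblasts and endothelium overlapped, so the order of these classes is not settled by the counts. Col4a1 stood at 3227 CPM in the 3 allograft endothelial cells and 875 CPM in the 14 native ones, but 1 allograft cell held 83.7% of its UMIs, so no ratio is drawn. In native endothelium 1 cell held 28 of the 54 Col4a1 UMIs. Native Schwann cells, at 838.5 CPM (687 to 1010), did not differ from native endothelium beyond counting error. In fibroblasts Col4a1 stood at 170 CPM in the allograft (133 to 215; 70 UMIs) and 342 CPM in native tracheas (331 to 354; 3226 UMIs). That difference of 2.0-fold (1.59 to 2.59) lay just short of the 2-fold threshold before rounding. Col4a2 stood at 77.8 CPM in allograft fibroblasts and 150.4 CPM in native ones, 1.91-fold lower (1.36 to 2.84). The top allograft cell for Col4a1 held 19 of 70 UMIs, and the top one for Col4a2 13 of 32. Without that cell the allograft level was 127 CPM for Col4a1 and 47.8 CPM for Col4a2, each more than 2-fold below the native level. Only 9 of 28 allograft fibroblasts had a Col4a1 UMI (32.1%), against 764 of 874 native fibroblasts (87.4%). With every cell thinned to 1500 UMIs the share was 18.5% in allograft fibroblasts (6.3 to 38.1) and 39.2% in native ones (35.9 to 42.5), intervals that overlap. Before thinning, the median allograft fibroblast had no Col4a1 UMI, and a few allograft cells carried most of the sum.

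The balance of UMIs between the 2 type IV genes differed beyond counting error between native fibroblasts and native endothelium and Schwann cells. This balance depends on how well each 3′ end is captured and is compared only between classes. Native fibroblasts had 2.28 Col4a1 UMIs for each Col4a2 UMI (2.14 to 2.42), and allograft fibroblasts 2.19 (1.42 to 3.44). Native endothelium had 1.04 (0.696 to 1.55) and native Schwann cells 1.30 (0.970 to 1.76), intervals that do not reach that of native fibroblasts. Of the 14 native endothelial cells, the top cell for Col4a1 held 28 of 54 UMIs and the top cell for Col4a2 22 of 52. The interval does not cover that spread between cells. Allograft endothelium had 1.92 (1.34 to 2.78), a value set mostly by the 1 allograft cell named above.

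Type VI collagen RNA was seen in nearly all fibroblasts of both tracheal libraries, at a lower level per UMI in the allograft gate as a whole. Col6a1 was seen in 27 of 28 allograft fibroblasts and 859 of 874 native fibroblasts. It stood at 1307 CPM in the allograft cells (1200 to 1420) and 2373 CPM in the native cells (2340 to 2400), 1.81-fold lower (1.67 to 1.98). Per cell, the median was 8.70 Col6a1 UMIs per 10000 in allograft fibroblasts and 20.6 in native ones, and the ranges, 0 to 51.3 in the allograft and 0 to 71.3 in native tracheas, overlapped. Col6a2 stood at 933 CPM in allograft fibroblasts and 1480 CPM in native ones (1.58-fold lower, 1.43 to 1.76). Col6a3, whose product carries the long tails of the filament, stood at 1256 CPM in allograft fibroblasts and 1947 CPM in native ones (1.55-fold lower, 1.42 to 1.69). For Col6a1, 119 of the 538 allograft fibroblast UMIs came from 1 cell. Without that cell the allograft level was 1080 CPM, more than 2-fold below the native level. Some fibroblasts had fewer than 2 UMIs of the lung fibroblast genes Inmt and Ces1d and 0 of Pi16 and Dpp4. Among these, Col6a1 stood at 1603 CPM in 11 allograft cells and 1758 CPM in 94 native ones, and Col6a2 at 1111 and 1112 CPM. Col6a3 was higher there in the allograft, at 1719 against 1235 CPM. Without the top allograft cell for each gene these levels were 1060, 835 and 1300 CPM. With a Pi16 or Dpp4 UMI instead, 17 allograft cells had Col6a1 at 1093 CPM and 144 native ones had 2451 CPM. With every gated fibroblast counted, none of the 3 type VI genes passed 2-fold, whereas all 3 were 14.8-fold to 19.2-fold lower over all cells. Chondrocytes carried them as well, with Col6a1 at 613 CPM in 20 allograft cells and 508 CPM in 6 native cells.

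The Col6a1 to Col6a2 ratio of UMIs was 1.40 in allograft fibroblasts (1.23 to 1.60) and 1.60 in native ones (1.57 to 1.64). Native Schwann cells had 80 Col6a1, 19 Col6a2 and 62 Col6a3 UMIs, which gave a Col6a1 to Col6a2 ratio of 4.21 (2.53 to 7.36), above that of native fibroblasts. The Col6a1 to Col6a3 ratio was 1.04 in allograft fibroblasts (0.921 to 1.18) and 1.22 in native ones (1.19 to 1.24). In mixed cells it was 0.701 in the allograft (0.597 to 0.822) and 1.32 in native tracheas (1.22 to 1.44), so Col6a1 UMIs were fewer than Col6a3 UMIs in the allograft mixed cells and more numerous in the native ones.

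Col8a1 was the member that stood higher in the allograft. In the chondrocyte gate 18 of 20 allograft cells carried it, at 2067 CPM (1910 to 2230), and 4 of 6 native cells, at 445 CPM (243 to 746). Those 20 cells held 671 of the 1178 Col8a1 UMIs of the allograft library (57.0%), 170 of them in 1 cell, and without that cell the level was 1790 CPM. In the native library chondrocytes held 14 of 307 Col8a1 UMIs (4.56%) and fibroblasts 227 (73.9%). The 6 native cells, which also carried fibroblast markers as given above, are too few for a comparison within the class. In fibroblasts Col8a1 stood at 279.5 CPM in the allograft (115 UMIs in 19 of 28 cells) and 24.1 CPM in native tracheas (227 UMIs in 61 of 874 cells), 11.6-fold higher (9.19 to 14.6). The chondrocyte marker sum was also higher in these allograft fibroblasts, as given above, with Matn1 and Matn3 at 0 in the allograft cells and Cnmd and Matn1 at 0 in the native ones. Among the 21 allograft and 857 native fibroblasts with at most 1 chondrocyte marker, a split added after the data were seen, Col8a1 stood at 196.4 CPM in the allograft and 15.7 CPM in native tracheas, 12.6-fold higher (9.07 to 17.2). Thinned to 1500 UMIs, 22.2% of allograft and 2.20% of native fibroblasts carried it. The ratio was smaller, 1.85 on the log2 scale instead of 3.54, when only the 238 native fibroblasts with fewer than 2 UMIs of the lung fibroblast genes Inmt and Ces1d were set against the allograft cells.

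Col13a1 was not seen in the allograft. It had 0 UMIs in 3864 allograft cells, which allows up to 0.118 CPM, against 1756 UMIs in the native library (57.9 CPM), of which 94.6% lay in fibroblasts. Within the fibroblast gate it had 0 UMIs in 28 allograft cells, which allows up to 7.29 CPM, against 1662 UMIs in 521 of 874 native cells (176 CPM), at least 24.2-fold lower. No allograft fibroblast had 2 or more UMIs of Inmt and Ces1d, while 510 native ones did together with Pi16 or Dpp4 and 126 did without them. Col13a1 stood at 133.8 CPM in the 238 native fibroblasts below that level and was at 0 in all 28 allograft cells of the same kind. In native endothelium it had 10 UMIs in 4 of 14 cells (162 CPM, 77.7 to 298), a level whose interval spans that of native fibroblasts.

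Col14a1 was higher per allograft fibroblast although it was lower over all cells. It stood at 880 CPM in allograft fibroblasts (791 to 975; 362 UMIs) and 381 CPM in native ones (369 to 394; 3590 UMIs), 2.31-fold higher (2.07 to 2.57). It was seen in 22 of 28 allograft cells and 747 of 874 native cells, and after thinning in 70.4% of allograft and 40.4% of native cells. Among allograft fibroblasts the 17 cells with a Pi16 or Dpp4 UMI, genes of adventitial fibroblasts, had 1228 CPM and the other 11 had 399 CPM, but 43 of the 69 UMIs of the 11 came from 1 cell, and without it they had 166 CPM. The 144 native fibroblasts with a Pi16 or Dpp4 UMI and fewer than 2 of Inmt and Ces1d had 349 CPM.

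The related genes Col15a1 and Col18a1 parted in fibroblasts. Col15a1 stood at 160 CPM in the allograft cells (124 to 204; 66 UMIs) and 718 CPM in the native cells (701 to 736; 6771 UMIs), 4.45-fold lower (3.52 to 5.80). It was seen in 13 of 28 allograft cells and 778 of 874 native cells. Col18a1 stood at 131 CPM in the allograft cells and 65.2 CPM in the native cells, 2.03-fold higher (1.5 to 2.66), but 24 of its 54 allograft UMIs came from 1 cell. Without the top cell of each library its log2 ratio was 0.29, so that call rests on 1 cell. Its highest native level was in the 29 Schwann cells, where 28 cells carried 192 UMIs (1505 CPM, 1300 to 1730), 20.2% of all native Col18a1 UMIs. The level in native endothelium was 97.3 CPM (35.7 to 212). In the 3 allograft endothelial cells Col15a1 had 21 UMIs and Col18a1 29.

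**Figure D2:**
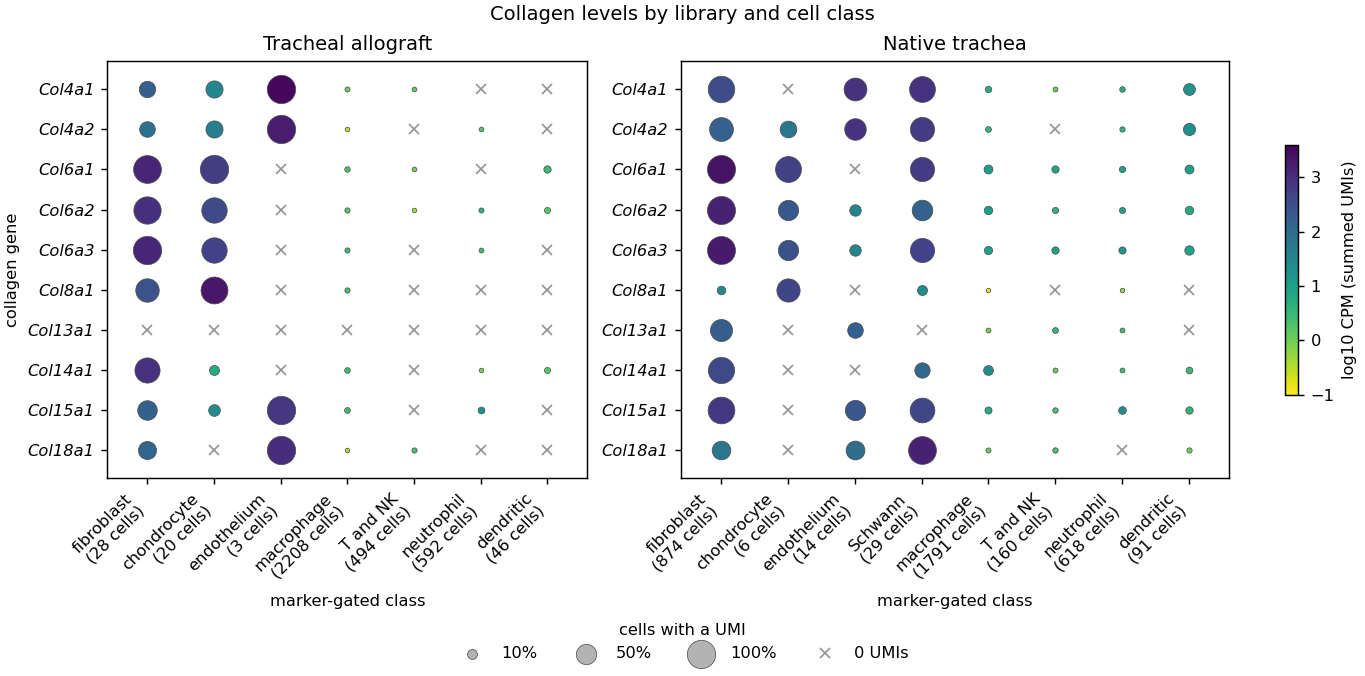
Level of each collagen (dot colour, log10 CPM of summed UMIs) and percent of cells with a UMI (dot size) by marker-gated class, allograft in the left panel and native in the right; crosses mark 0 UMIs. Col13a1 shows crosses throughout the allograft panel, Col8a1 is darkest in chondrocytes, Col4a1 and Col4a2 in endothelium, and Col18a1 in native Schwann cells.

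Within the fibroblast gate as a whole, 5 members were 2-fold or more apart, where 31.2% of 12420 genes were. Col13a1 and Col15a1 were lower in the allograft (11.7% of genes) and Col8a1, Col14a1 and Col18a1 were higher (19.5% of genes). The members' median log2 ratio was -0.76, beside 0.14 over all genes tested. With the 2 libraries scaled by the median of gene ratios instead of the UMI total, which shifts every fibroblast log2 ratio by -0.22, 5 members were lower (Col4a1, Col4a2 and Col6a1 in addition) and Col8a1 alone was higher. With macrophage and other leukocyte lists ignored in the gates, a setting chosen after the data were seen, the gate held 55 allograft and 963 native cells, 6 members were lower and Col8a1 was higher. Col14a1 then had a log2 ratio of 0.70. Without the cell with the most UMIs of each member in each library, 5 members were lower and 2 higher. In fibroblasts with at most 1 chondrocyte marker Col18a1 fell just short of the threshold (log2 ratio 0.99) and the other 4 calls held. Col13a1 and Col15a1 lower and Col8a1 higher were thus the calls that held in each of these settings. The shares of all genes past 2-fold are given for the main setting only. The counts of members in the other settings therefore have no share to be read beside. Median depth was 14059 UMIs in allograft fibroblasts and 11047.5 in native ones.

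**Figure D3:**
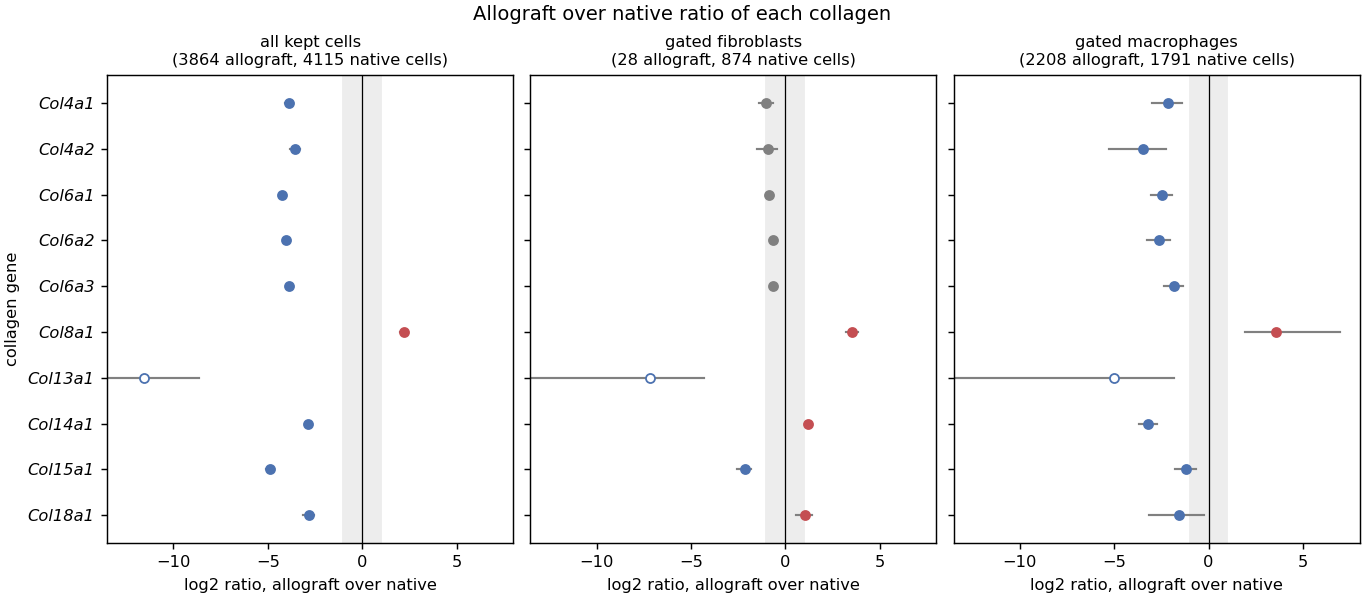
Log2 ratio of each collagen, allograft over native (x axis), over all kept cells, gated fibroblasts and gated macrophages; lines are 95% counting intervals, the grey band is less than 2-fold, red and blue points are at least 2-fold higher and lower in the allograft, and open points are genes with 0 allograft UMIs, whose position depends on the 0.5 UMI added. Points for Col14a1 and Col18a1 lie left of 0 over all cells and right of 0 in fibroblasts.

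**Figure D4:**
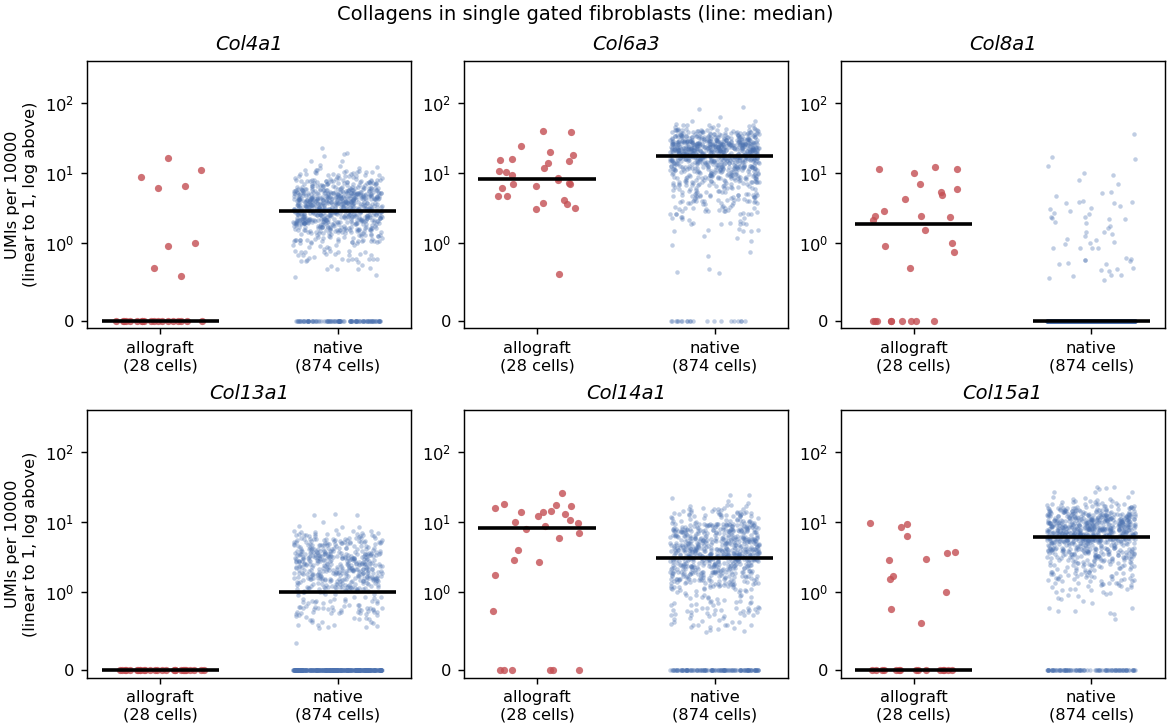
UMIs per 10000 (y axis, linear to 1 and logarithmic above) of 6 collagens in each of 28 allograft fibroblasts (left in each panel) and 874 native fibroblasts (right), with the median as a line. All 28 allograft cells lie at 0 for Col13a1, while for Col6a3 and Col14a1 the cells of the libraries overlap.

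In gated macrophages, levels of the members were low. By ratio, 9 members were lower and Col8a1 higher in the allograft, where 10.1% and 7.06% of 13632 genes were. Markers of other classes moved with these ratios in the macrophage gate: all 8 fibroblast markers were detected in both libraries, summing to 35.3 CPM in the allograft and 108.0 CPM in native tracheas. The chondrocyte markers summed to 12.2 CPM in the allograft, with 8 of 8 detected, and 3.85 CPM in native tracheas, with 5 of 8 detected and Acan, Cnmd and Matn3 at 0. Their part in the macrophage ratios was not tested. Lymphocytes (T, NK and B cells) serve here as cells that should lack collagen RNA. In the native library every member but Col14a1 had an interval in macrophages that overlapped the one in lymphocytes. In the allograft Col6a3, Col14a1 and Col15a1 did not overlap it, at 2.56 CPM each in macrophages and 0 UMIs in 521 lymphocytes. For Col6a3, 18 of the 45 macrophage UMIs came from 1 cell, and the level without that cell, 1.54 CPM, lay below the lymphocytes' upper limit of 1.59 CPM. Col6a1 stood at 2.10 CPM in allograft macrophages and 11.6 CPM in native ones, and at 0.860 CPM in allograft lymphocytes and 8.004 CPM in native ones. The lymphocyte level was thus also lower in the allograft, and the part of such RNA in the macrophage ratios was not tested. Col8a1 had 42 UMIs in allograft macrophages and 2 in native ones, and 17 of the 42 came from 1 cell.

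By CPM, Col14a1 lay above the lymphocyte level in native macrophages. It stood at 2.56 CPM in allograft macrophages (1.86 to 3.42; 45 UMIs in 35 cells) and 23.3 CPM in native macrophages (20.7 to 26.2; 291 UMIs in 174 cells), 9.04-fold lower (6.65 to 12.8). In native lymphocytes it stood at 2.67 CPM (0.550 to 7.80). The share of cells with a UMI was 9.72% of native macrophages, 1.47% of the 204 native lymphocytes and 0.625% of native T and NK cells alone; median depth was 6498 UMIs in macrophages and 3624 in T and NK cells. Thinned to 1500 UMIs, the share was 3.09% of macrophages (2.33 to 4.02) and 0.637% of T and NK cells (0.0161 to 3.5), intervals that overlap. Spleen macrophages, from a library in which no cell passed the fibroblast gate, had 13 Col14a1 UMIs in 11 of 120 cells (24.7 CPM, 13.2 to 42.3), against 0.410 CPM in spleen lymphocytes. Split after the values were seen, native macrophages with no UMI of the resident-macrophage genes Lyve1 and Cd163 had 34.5 CPM (29.6 to 39.9) and those with 2 or more had 14.4 CPM (11.5 to 17.8).

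A few further leukocyte values, picked out after they were seen, lay above the lymphocyte level by CPM. Col15a1 had 22 UMIs in 20 of 592 allograft neutrophils (18.9 CPM, 11.9 to 28.7) and 37 UMIs in 32 of 618 native neutrophils (22.6 CPM, 15.9 to 31.1). Lymphocytes had 0 Col15a1 UMIs in the allograft and 2 in native tracheas (1.78 CPM), and the 280 spleen neutrophils had 0. Native dendritic cells had 17 Col4a1 and 21 Col4a2 UMIs in 91 cells (17.2 and 21.3 CPM), while the 46 allograft dendritic cells had 0 of both. After thinning each was in 3.3% of native dendritic cells (0.685 to 9.33), which overlaps native T and NK cells (0 to 2.32).

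The genes around the members in the collagen pathway were counted from lists. Their counts are to be read beside the shares of all genes, 19.5% lower and 7.06% higher over all cells and 11.7% lower and 19.5% higher in fibroblasts. Among 17 measured basement membrane glycoproteins and proteoglycans, which bind the type IV network, 14 were lower and 0 higher in the allograft over all cells, with Lamc3 (allograft 3, native 1297 UMIs) and Lama2 (allograft 38, native 2192) the lowest ratios and Lamb3 (allograft 5.10, native 4.68 CPM) and Papln (allograft 0.667, native 0.692 CPM) the highest. In fibroblasts 3 of 14 were lower and 1 higher, and Nid2, a linker of laminin to type IV collagen, had the highest ratio (allograft 60.8, native 6.47 CPM), followed by Sparc, a collagen-binding protein (allograft 12170, native 6099 CPM). Lamc3 (allograft 0, native 1206 UMIs) had the lowest ratio. Lama5 (allograft 0, native 37 UMIs) is among the 3 only through the 0.5 UMI added: its 0 allows up to 7.29 CPM, above the native 3.93 CPM, so it is not shown to be lower. Of 19 other non-fibrillar collagens measured over all cells, 11 were lower and 5 higher. The lowest were Col4a6 (allograft 0, native 1022 UMIs) and the membrane collagen Col23a1 (allograft 26, native 11425), and the highest were the cartilage collagens Col10a1 (allograft 776, native 1) and Col9a2 (allograft 1100, native 72). In fibroblasts 6 of 15 were lower and 6 higher, but 2 of the 6 lower ones had 0 allograft UMIs and a native level below what that 0 allows. Col4a6 (allograft 0, native 942 UMIs) and Col23a1 (allograft 13, native 10691) were again lowest, and Col9a2 (allograft 30, native 1) and Col6a5 (allograft 46.2, native 3.18 CPM) highest. Only 1 of the 30 allograft Col9a2 UMIs lay in the 21 fibroblasts with at most 1 chondrocyte marker.

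Of 19 enzymes and chaperones of collagen synthesis and crosslinking, 9 were lower and 1 higher over all cells (19.5% and 7.06% of all genes), and 0 were lower and 8 higher in fibroblasts (11.7% and 19.5% of all genes). Serpinh1, the collagen chaperone, had the lowest ratio in both settings, over all cells (allograft 60.1, native 862 CPM) and in fibroblasts (allograft 2027, native 2579 CPM). The crosslinking enzyme Loxl1 had the second lowest over all cells (allograft 10.6, native 128.4 CPM). The highest ratio was that of P4ha3, a prolyl hydroxylase subunit, both over all cells (allograft 71, native 33 UMIs) and in fibroblasts (allograft 53, native 17 UMIs, a level 70.0-fold higher, 40.7 to 132), followed by Colgalt1 over all cells (allograft 140.4, native 95.4 CPM) and Loxl3 in fibroblasts (allograft 89.9, native 28.1 CPM). Ppib had the second lowest ratio in fibroblasts (allograft 816.5, native 992 CPM). Of 12 collagen receptors, 5 were lower and 2 higher over all cells. Itga11 (allograft 1.29, native 12.7 CPM) and Ddr2 (allograft 6.98, native 61.0 CPM) were lowest, and Itga10 (allograft 8.12, native 2.04 CPM), a chondrocyte integrin, and Lair1 (allograft 100.6, native 40.9 CPM), a leukocyte receptor, highest. In fibroblasts 0 of 11 were lower and 2 higher, close to the shares of all genes (11.7% and 19.5%), with Itga10 (allograft 24.3, native 3.93 CPM) and Cspg4 (allograft 72.9, native 21.8 CPM) highest and Ddr2 (allograft 136, native 181 CPM) and Itgb1 (allograft 389, native 448 CPM) lowest. In fibroblasts with at most 1 chondrocyte marker Itga10 had 0 UMIs in 21 allograft cells and 32 in 857 native cells (3.45 CPM). The interval of that ratio, 0 to 3.9, spans 1, so Itga10 is not shown to differ in those cells.

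As a yardstick, the 4 fibrillar collagen genes Col1a1, Col1a2, Col3a1 and Col5a1 were all lower in the allograft over all cells and all higher in its fibroblasts, with median log2 ratios of -1.99 and 1.92. Col3a1 reached 17830 CPM in allograft fibroblasts and 3509 CPM in native ones, and Col5a1 999 CPM in allograft and 354 CPM in native fibroblasts. The 3 type VI genes had ratios below 1 in the same cells. No test of that difference was possible with 1 library for each source.

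The members also differed in how they varied from cell to cell among the 874 native fibroblasts. All cells come from 1 library and share its depth and its mixture of fibroblast kinds, so Pearson's r, computed on log values of UMIs per 10000, is a description. The type VI genes went together most closely, with r of 0.72 between Col6a1 and each of the other two and 0.69 between Col6a2 and Col6a3. Of 7402 genes compared, the 3 most like Col6a1 were Col6a2, Col6a3 and Fbln2 (0.64), and for Col6a3 the third was Spon1 (0.64). Col15a1 was most like Col6a3 (0.55), Col6a2 (0.53) and Fbln2 (0.52). Col13a1 was most like Col6a3, Igfbp7 and Itga8 (0.47 each), and Col14a1 most like Dpt (0.37), Ccdc80 (0.35) and Pi16 (0.33), with r of -0.20 between Col13a1 and Col14a1. Col8a1, seen in 6.98% of these cells, was most like its partner chain Col8a2 (0.39), then Clu (0.35) and Cilp (0.33). Col4a1 and Col4a2, whose promoter windows overlap, had r of 0.25. Col4a2 was seen in 69.8% of these cells, at a median of 2 UMIs in those that had it. The part of such counts in r was not tested. Col4a1 was most like Col15a1 (0.37), Col6a3 (0.35) and Sparcl1 (0.32). Igfbp7 (0.25) and Col6a2 (0.23) came next for Col4a2. For Col18a1 no gene passed 0.16. Native fibroblasts carried a median of 8 of the 10 members (1 to 10), and allograft fibroblasts 6 (3 to 9).

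**Figure D5:**
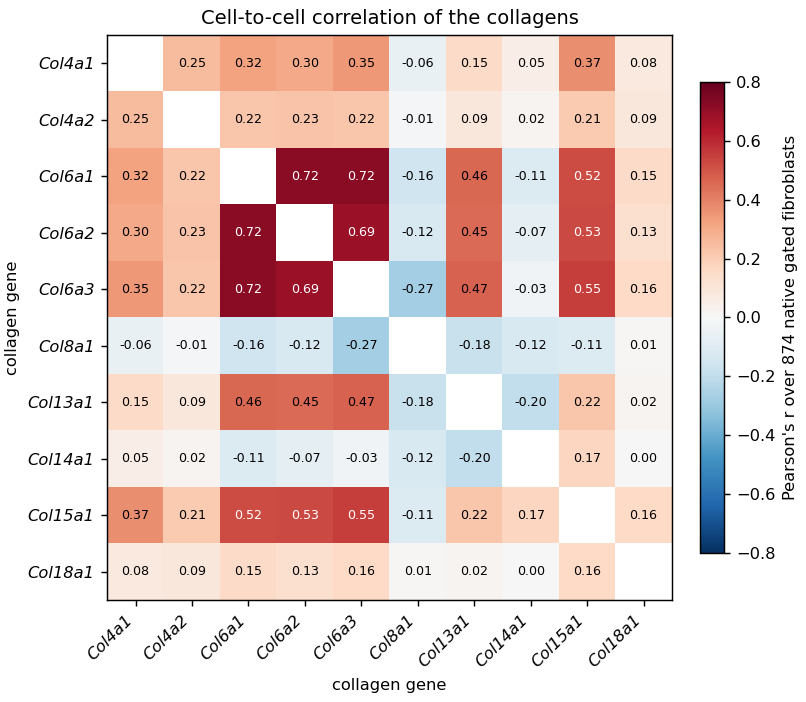
Pearson's r between each pair of collagens over 874 native gated fibroblasts (colour and number in each square; both axes list the genes). The square of Col6a1, Col6a2 and Col6a3 holds the highest values, 0.69 to 0.72, and every value below 0 is in a row or column of Col8a1 or Col14a1.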

How the data were processed

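Single-cell 3′ RNA libraries of tracheal allografts, native tracheas and spleens were analysed. The deposited matrices hold raw UMI counts per gene and barcode, made with Cell Ranger 3.1.0 per the file headers and on build mm10 per the submitters' processing notes; the deposited gene and barcode lists hold names with no other measurement, and the cell-calling settings are not given in the sources used here. Cells with 500 or more genes and at most 20% mitochondrial UMIs were kept. Scrublet (scanpy 1.11.5) removed 31 allograft, 43 native and 9 spleen barcodes (0.672%, 0.930% and 0.185%, where 3.69%, 3.70% and 3.88% were expected), so doublets largely remain. A cell joined a class with 3 or more of 8 markers when each list of another lineage had fewer than 50% as many. UMIs were summed per class (Poisson intervals for CPM, exact binomial intervals for ratios and, by Clopper-Pearson, for shares); a ratio needed 10 UMIs and, within a class, 20 cells per library, and a count of 0 was read as up to 3. A difference was called at 2-fold. Ratios were also computed on sums simulated with Poisson noise, where intervals held the true ratio for 96.0% of changed genes over all cells and 97.5% in fibroblasts. The intervals assume that same noise, so the simulation cannot show how they fare with spread between cells or libraries. Genes named from other lists were those with the 2 highest and 2 lowest ratios of each. The members and lists were chosen with earlier results of these data known. Sequences are from RefSeq, and 30934 of 31053 gene identifiers matched GENCODE release 21. Other filters, scalings, gates and minima were tried. Python 3.11.15, scipy 1.17.1 and pandas 2.3.3 were used.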

Additional observations from a re-analysis of the deposited data

Results flagged for a closer look

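The spleen library, which no comparison between tracheal sources uses, held UMIs of 5 members above the limit of 3 counts. Col14a1 had 34 UMIs in 30 of 4570 cells, 13 of them in macrophages. Col4a1 had 16 UMIs and Col4a2 had 12, and 11 of each lay in cells that passed no gate. Col18a1 had 14 UMIs, 6 of them in 6 of 67 erythroid cells. Col15a1 had 10 UMIs in 10 cells, 6 of them B cells. The remaining members, Col6a1, Col6a2, Col6a3, Col8a1 and Col13a1, had 0 UMIs there.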

How the results depend on the processing

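The count of 9 members lower over all cells was 9 under every filter, scaling, thinning and doublet setting run. Gated fibroblasts gave 5 members apart, and 4 to 7 in the alternatives, and macrophages 10, and 9 or 10 in the alternatives. In the main setting 19.5% of all genes were lower over all cells. The share apart was then 31.2% in fibroblasts and 17.1% in macrophages. No such shares are given for the alternatives, so their counts of members cannot be set beside them. The percent of native member UMIs in gated fibroblasts, 91.4 (91.2 to 91.6), was 91.7 with 1000 or more genes and at most 10% mitochondrial UMIs, 89.2 with called doublets kept, and 96.2 with leukocyte lists ignored in the gates, a setting added after the data were seen; the cause was not tested. Of the planned recalculations of single members, 202 stayed within the counting interval and 18 moved. Of those added, 19 stayed and 11 moved. No direction was reversed. No comparison within chondrocytes or endothelium could be made under any setting, since native chondrocytes numbered at most 11 and allograft endothelial cells at most 6, and fibroblasts could not be compared with a minimum of 50 cells. No paired analysis was possible because each source is 1 pooled matrix, and for the same reason no replicate could be left out. Gated allograft fibroblasts held 411505 UMIs in all, chondrocytes 324689 and endothelial cells 28507, which limits what their levels can show.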
